A study of Mus musculus with 22 samples.

Results

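The 10 genes described here lie on chromosome 5 around Shh, the gene that carries Cre recombinase in this knockout. They are 9530036O11Rik, Lmbr1, Rnf32, Rbm33, Cnpy1, Nom1, Mnx1, Rint1, Nupl2 and Abhd1, and they are 10 of 19050 genes tested. Each gene was read from the single probe set that names it alone, and all 10 passed the filter on dim probe sets. The list was drawn from the chromosome region of Shh with the knockout results of these same arrays known. The knockout minus control values of its members are therefore a description, and no test of them is read as a result. The arrays measured RNA from the epithelium of the urogenital sinus of C57BL/6J mouse fetuses at embryonic day E16.75. Knockouts had the genotype ShhCre/+; Sox9fl/fl and littermate controls Shh+/+; Sox9+/fl, with 6 arrays for each male genotype and 5 for each female genotype. Controls therefore also carried a floxed Sox9 allele but no Cre, while every knockout carried Cre at Shh. Loss of Sox9, the Cre allele and any DNA inherited with it cannot be told apart by this design. The labels call the replicates biological without saying whether an array held 1 fetus or a pool or which arrays were litter mates, so the errors measure the spread between these arrays.

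Shh encodes the secreted hedgehog ligand of this epithelium, which signals to the surrounding mesenchyme while prostatic buds form. The gene sits in a long stretch of chromosome with few other genes, and distant enhancers spread over that stretch control where it is transcribed. The best known of them, the limb enhancer of Shh, lies in an intron of Lmbr1. Alleles targeted to a gene are inherited together with the chromosome segment around them, and this is why the neighbours of a targeted gene are looked at when carriers are compared with littermates that lack the allele.

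In the order of tested genes along the chromosome, as given by the GRCm38.p6 gene table, 7 of the 10 genes lay within 5 places of Shh. Cnpy1 and Rbm33 came before Shh, at the places -2 and -1. 9530036O11Rik, a long noncoding RNA gene, came next after it, at 1, and was followed by Rnf32, Lmbr1, Nom1 and Mnx1 at 2, 3, 4 and 5. The other 3 were farther out, with Rint1 46 and Nupl2 39 places before Shh and Abhd1 31 places after it. From the first to the last listed gene, 67 tested genes were neither listed nor Shh, so position alone does not give the list. By the same annotation 9530036O11Rik overlaps Shh, and Abhd1, listed there as a transcribed pseudogene, overlaps Preb. Whether the probe sets separate these overlapping transcripts was not tested.

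The stretches before the starts of 3 of these genes are shown, because Rint1 and Nupl2 had lower mean values in knockouts of both sexes while Nom1 did not. They come from RefSeq (GRCm38.p6, + strand), end at the base before the gene start and are written 5′ to 3′, at chr5:23787461-23787697 for Rint1, chr5:24164713-24164962 for Nupl2 and chr5:29434417-29434658 for Nom1. Capitals mark matches to ACAAT or ACAAAG, short cores bound by SOX proteins, searched on both strands.
Rint1: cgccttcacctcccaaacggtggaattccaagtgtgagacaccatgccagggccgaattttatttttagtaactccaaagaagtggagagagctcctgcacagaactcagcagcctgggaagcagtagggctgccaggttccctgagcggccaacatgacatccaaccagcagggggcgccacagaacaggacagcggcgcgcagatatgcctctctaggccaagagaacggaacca
Nupl2: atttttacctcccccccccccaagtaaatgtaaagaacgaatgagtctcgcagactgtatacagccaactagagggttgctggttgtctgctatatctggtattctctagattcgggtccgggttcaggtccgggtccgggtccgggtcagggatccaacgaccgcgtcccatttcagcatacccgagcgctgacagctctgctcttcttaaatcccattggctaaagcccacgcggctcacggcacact
Nom1: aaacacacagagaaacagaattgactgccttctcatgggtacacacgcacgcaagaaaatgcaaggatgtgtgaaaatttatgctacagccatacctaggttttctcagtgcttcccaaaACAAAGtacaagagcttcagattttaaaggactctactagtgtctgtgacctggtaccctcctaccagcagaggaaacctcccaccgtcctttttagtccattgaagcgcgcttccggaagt
The match in Nom1 is an ACAAAG whose first base lies 122 bases before the gene start, and the windows of Rint1 and Nupl2 hold neither core. A wider count used the first 250 bases of each promoter entry, which for Rint1 and Nom1 run past the gene start used above. Of the 10 such windows listed for 9 of these genes, 2 held a match, those of Cnpy1 and Nom1. The share over all 32851 windows was 38.8%. A match is a description of letters, and its absence says only that these letters are not in this window.

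Sox9, the deleted gene, fell in the knockouts of both sexes by 1.07 (males) and 1.00 (females) on the log2 scale (limma adjusted p = 1.04e-07 and 2.28e-06). The labelled tissue had its markers: the mean of 10 epithelial genes lay between 11.40 and 11.61 on every array. The mean of 9 mesenchyme genes was 6.67 to 8.17 in male controls, with male control 6 the highest, 6.66 to 7.17 in male knockouts, 6.75 to 7.02 in female controls and 6.81 to 6.92 in female knockouts, so results in males are also given without that array where it moved them. Male control 6 was also the highest array for the mean of 4 endothelial genes, at 5.72. The mean of 5 urothelial genes was 10.44 to 11.03 in female controls and 10.74 to 11.35 in female knockouts. For 5 immune genes it was 6.18 to 6.24 in female controls and 6.06 to 6.60 in female knockouts. The part of either list in the female values was not tested. All values are log2 array intensities as deposited, and array medians lay between 5.10 and 5.27.

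9530036O11Rik, the long noncoding RNA next to Shh, read lower in knockouts than in controls, in males and in females alike. Male controls ran from 6.38 to 6.64 with a median of 6.57, and male knockouts from 6.23 to 6.33 with a median of 6.31. The 5 female controls read 6.34, 6.41, 6.47, 6.53 and 6.42, and the 5 female knockouts 6.29, 6.18, 6.13, 6.14 and 6.22. In each sex the highest knockout array lay below the lowest control array. The mean went from 6.54 ± 0.10 (SD, n = 6) to 6.29 ± 0.04 (n = 6) in males, 15.9% lower (log2 difference -0.25, SE 0.05). In females it went from 6.43 ± 0.07 (n = 5) to 6.19 ± 0.07 (n = 5), 15.5% lower (log2 difference -0.24, SE 0.05). The male minus female difference between these effects was -0.0065 (SE 0.07). Such separation of the arrays in both sexes, in the same direction, was seen for 10 of 19050 genes (0.0525%), among them Sox9 and Shh. Of these 10 genes, 4 were on chromosome 5 (9530036O11Rik, Shh, Sel1l3 and Bmp3), which holds 6.04% of the tested genes with a chromosome. That share was not tested, and nothing is read from it. 9530036O11Rik was chosen with this contrast known, and Shh carries the Cre allele in knockouts only. The signal was above the array median on 22 of 22 arrays but above all background control probe sets on 3.

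Shh itself fell by 0.45 in males (SE 0.08, limma adjusted p = 0.00874) and by 0.56 in females (SE 0.09, limma adjusted p = 0.0128). Knockouts were ShhCre/+ and controls Shh+/+, so this fall compares unlike Shh genotypes. The parts of the Cre allele and of Sox9 loss in it cannot be told apart. The female call was lost without female control 3 or 5 or female knockout 1 or 4 (adjusted p = 0.0541 to 0.0734) and with only the female arrays fitted (0.199), and the male call with array weights (0.0517). Without male control 6, the array with raised mesenchyme genes, the male difference of Shh was -0.44 (limma adjusted p = 0.0332). The differences of 9530036O11Rik were smaller on the log2 scale in both sexes. Within groups the pair varied with r = 0.12 over the 22 arrays, after the group means were subtracted.

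Lmbr1, the membrane protein gene that holds the limb enhancer of Shh, differed little and in opposite directions. The mean was 6.77 ± 0.14 in male controls and 6.65 ± 0.16 in male knockouts (n = 6 each; log2 difference -0.12, SE 0.07). In females it was 6.65 ± 0.10 and 6.69 ± 0.08 (n = 5 each; 0.04, SE 0.08). Rnf32, a RING finger protein whose gene lies between 9530036O11Rik and Lmbr1 in this order, went from 10.14 ± 0.17 to 10.04 ± 0.19 in males (-0.10, SE 0.09) and from 9.85 ± 0.19 to 9.81 ± 0.07 in females (-0.04, SE 0.10). The arrays of the genotypes overlapped for both genes in both sexes. Without female control 4 the female value of Rnf32 was 0.03. Lmbr1 was above all background probe sets on 12 of 22 arrays, and Rnf32 on 22.

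Rbm33, an RNA-binding protein gene directly before Shh, had means of 8.28 ± 0.10 and 8.31 ± 0.10 in male controls and knockouts (0.03, SE 0.05). In females the means were 8.38 ± 0.04 and 8.30 ± 0.06 (-0.08, SE 0.05). The female arrays did not overlap, but the gap was narrow, with the lowest control at 8.356 and the highest knockout at 8.354. Cnpy1, of the canopy family known for FGF signalling in fish, was above the array median on 10 of 22 arrays and above all background probe sets on 0. It differed by -0.11 (SE 0.08) in males and 0.05 (SE 0.09) in females. Nom1, a nucleolar protein gene, differed by -0.07 (SE 0.07) and 0.08 (SE 0.08). Mnx1, a homeobox factor of motor neurons and pancreas, differed by 0.0036 (SE 0.10) and -0.07 (SE 0.11), and was above all background probe sets on 0 of 22 arrays. Male control 4 had the highest Mnx1 value, 6.20, and without it the male difference was 0.10. The means of these genes in both sexes differed by less than those of 9530036O11Rik.

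Rint1, which takes part in traffic from the Golgi to the endoplasmic reticulum, was lower in knockouts of both sexes. Male controls ran from 7.56 to 7.82 with a median of 7.62, and male knockouts from 7.37 to 7.59 with a median of 7.52. Female controls read 7.66, 7.65, 7.56, 7.66 and 7.50, and female knockouts 7.43, 7.28, 7.35, 7.40 and 7.55. The groups overlapped in both sexes, in females through female knockout 5 at 7.55 and female control 5 at 7.50. The mean was lower by 0.16 on the log2 scale in male knockouts (SE 0.05) and by 0.20 in female knockouts (SE 0.06). Without male control 6, the array with raised mesenchyme genes and the highest Rint1 value, the male difference was -0.13.

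Nupl2, also named Nup42, a nucleoporin with a role in the export of mRNA, was lower in every female knockout and varied more among male knockouts. Female controls read 6.36, 6.44, 6.49, 6.49 and 6.51, and female knockouts 6.01, 6.15, 6.07, 6.19 and 6.17. Every female knockout lay below every female control, and the mean was 21.0% lower (-0.34, SE 0.07). Male controls ran from 6.35 to 6.58 with a median of 6.42, and male knockouts from 6.10 to 6.61 with a median of 6.27. The male groups overlapped, and male knockout 5, at 6.61, was the highest of all male arrays. The male difference was -0.13 (SE 0.07), and -0.19 without male knockout 5. The male minus female difference between the effects was 0.21 (SE 0.10), and no test of it is given because the gene was chosen on these contrasts. Nupl2 was above all background probe sets on 0 of 22 arrays, though above the array median on 22.

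Abhd1, of the alpha/beta hydrolase family, was higher in knockouts and had the largest difference of the list in females, while in males that of 9530036O11Rik was larger. Female controls read 6.00, 6.00, 5.95, 5.95 and 5.90, and female knockouts 6.40, 6.51, 6.48, 6.48 and 6.22. All female knockouts lay above all female controls, and the mean was 37.1% higher (log2 difference 0.46, SE 0.09). Male controls ran from 5.89 to 6.39 with a median of 6.03, and male knockouts from 6.12 to 6.49 with a median of 6.37. The male groups overlapped through male controls 3 and 4, at 6.39 and 6.28, and the mean was 16.1% higher in knockouts (0.22, SE 0.08). The male minus female difference between the effects was -0.24 (SE 0.12). Preb, which overlaps Abhd1 in the gene table and comes next in the order, differed by -0.05 (SE 0.06) in males and 0.05 (SE 0.07) in females. Abhd1 was above all background probe sets on 1 of 22 arrays.

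**Figure D1:**
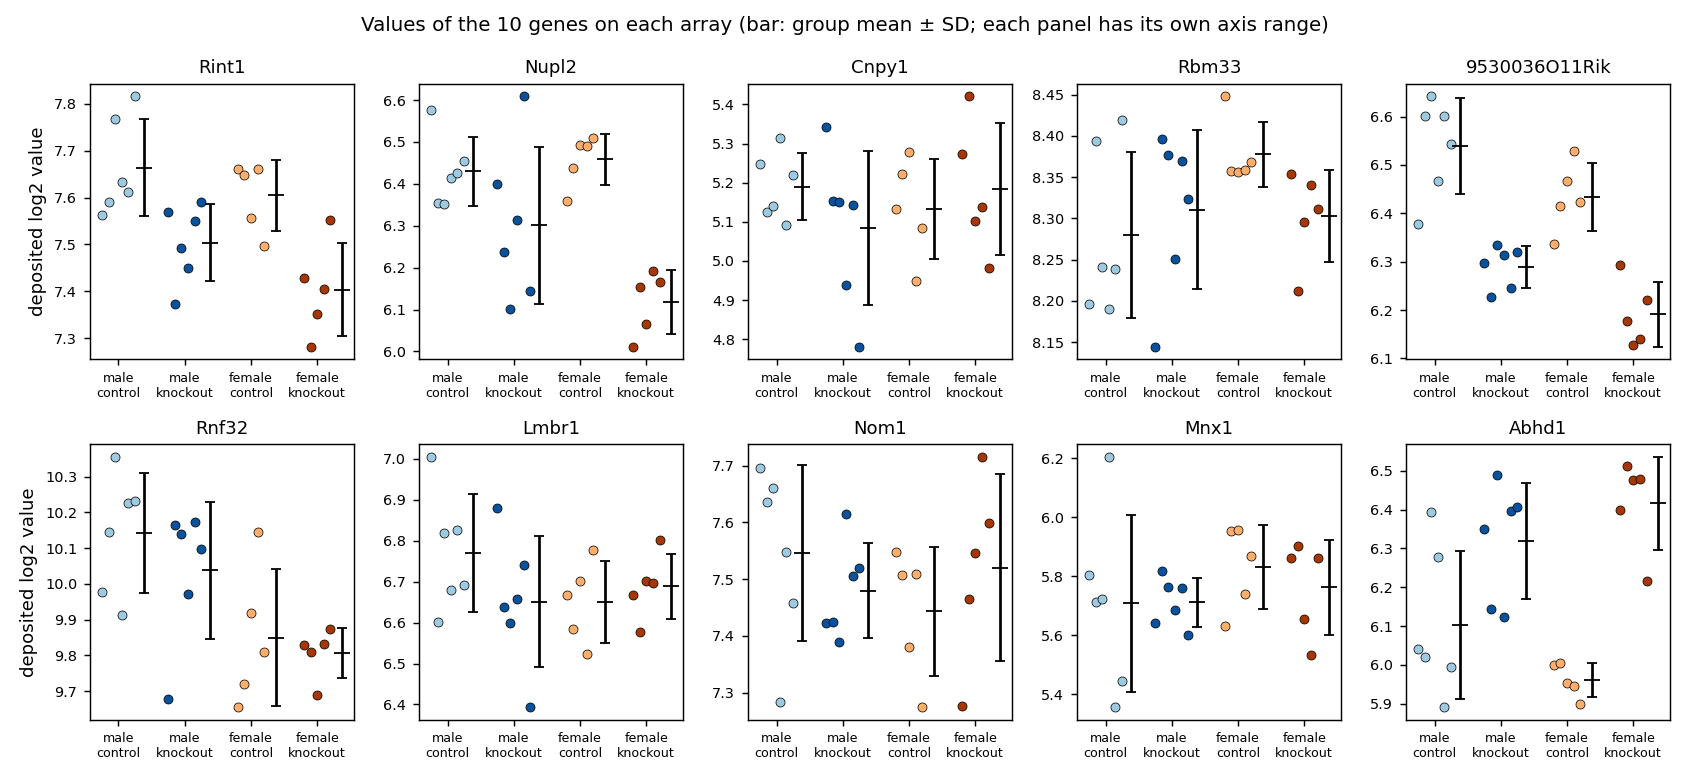
Deposited log2 value of each of the 10 genes on every array, in chromosome order from left to right and top to bottom, with points for arrays of the 4 groups and a bar for the group mean ± SD. The knockout arrays of 9530036O11Rik lie below the control arrays in both sexes, and those of Nupl2 and Abhd1 are separate from controls in females and overlap with them in males.

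Over the list, 7 genes had lower and 3 higher means in male knockouts, and 6 had lower and 4 higher means in female knockouts. In both sexes 4 genes had lower means in knockouts (9530036O11Rik, Rnf32, Rint1 and Nupl2) and 1 a higher mean (Abhd1), while 5 had opposite signs in the sexes. The median log2 difference of the list was -0.10 in males and -0.06 in females, beside 0.01 over all genes in both sexes. The median size of a difference, its sign left aside, was 0.11 in males and 0.08 in females, beside 0.05 over all genes in both sexes. No gene of the list reached a 2-fold difference (0 of 10). The ranges of knockouts and controls were separate for 1 gene in males, where this holds for 0.42% of all genes, and for 4 in females (9530036O11Rik, Nupl2, Rbm33 and Abhd1), where it holds for 1.39%. Nothing is read from these counts, since the genes were chosen with the contrast known.

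**Figure D2:**
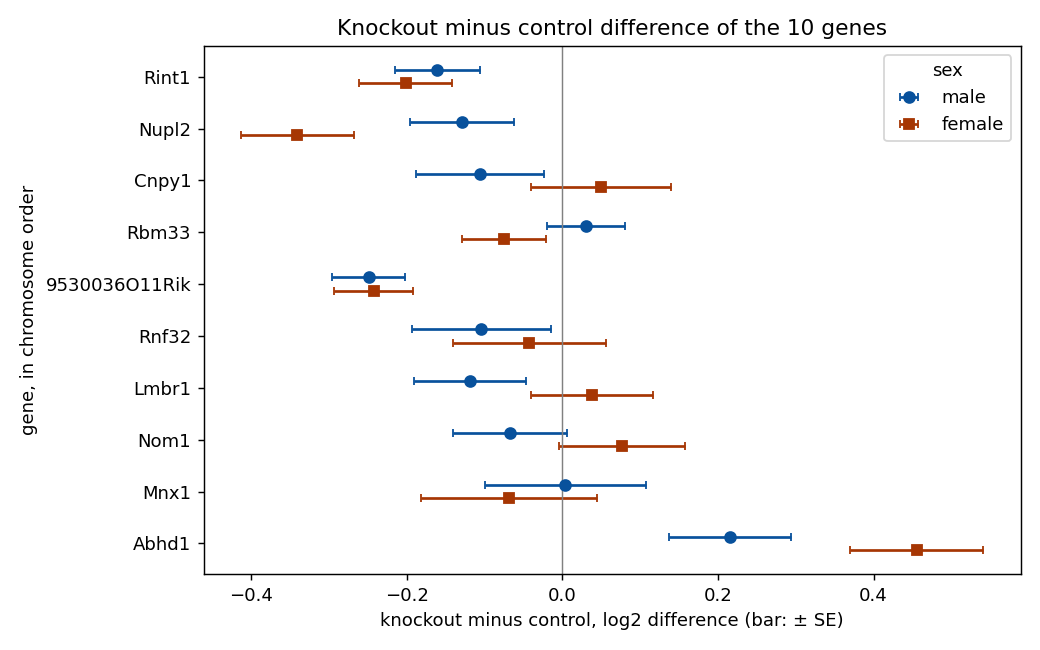
Knockout minus control difference on the log2 scale for each of the 10 genes in males (circles) and females (squares), with bars of ± SE, in chromosome order. 9530036O11Rik has nearly equal values in the sexes (-0.25 and -0.24), while Nupl2 (-0.13 and -0.34) and Abhd1 (0.22 and 0.46) lie farther from 0 in females.

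A window set by position alone, the 50 tested genes before and the 50 after Shh, places the list among its neighbours. Of the 90 genes of this window that are neither listed nor Shh, 0 passed an adjusted p of 0.05 in limma in males, in females or on the average of the sexes, beside 0.199%, 0.0315% and 0.247% of all genes tested. An unadjusted p under 0.05 was reached by 9 of the 90 in males, 8 in females and 9 on the average, beside 6.27%, 5.46% and 7.19% of all genes. The listed genes were chosen with this contrast known, so taking them out can lower the counts among the 90. With them put back, 1 of 100 genes passed the adjusted threshold in males, 0 in females and 3 on the average. Nothing is read from either set of counts.

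The genes within 5 places of Shh that are not listed were En2, Insig1 and Gm26608. En2, a homeobox factor of the midbrain and cerebellum, differed on the average of the sexes by 0.02 (SE 0.04), and the predicted gene Gm26608 by 0.01 (SE 0.05). Insig1, a regulator of sterol synthesis, differed by -0.20 (SE 0.10) in males, the largest male difference among the 90 unlisted genes, by -0.0091 (SE 0.11) in females and by -0.10 (SE 0.08) on the average (limma adjusted p = 0.873 on the average). The highest averages among unlisted window genes were those of Snord93, a small nucleolar RNA, at 0.27 (SE 0.12, limma adjusted p = 0.604), Wdr86, a WD repeat protein, at 0.26 (SE 0.06, limma adjusted p = 0.0755), and Dpp6, an auxiliary subunit of potassium channels, at 0.21 (SE 0.06, limma adjusted p = 0.181). Wdr86 passed without male control 3. The lowest were those of 2700038G22Rik at -0.19 (SE 0.08, limma adjusted p = 0.631), Insig1, and Fndc4, a fibronectin domain protein, at -0.10 (SE 0.05, limma adjusted p = 0.655). Separate ranges of the genotypes were seen for 0 of the 90 in males and for 3 in females (3.33%). Over all genes the shares were 0.42% in males and 1.39% in females. The 3 genes were Snord93, Wdr86 and Dnajb6, all higher in knockouts.

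**Figure D3:**
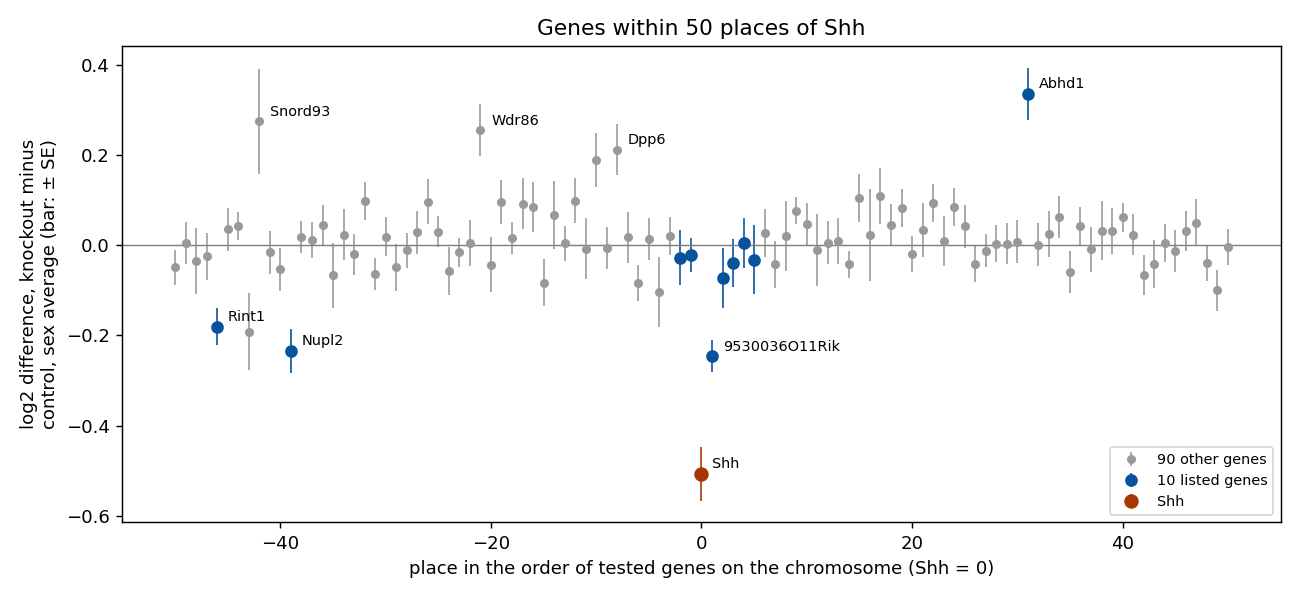
Knockout minus control difference averaged over the sexes, on the log2 scale with bars of ± SE, for the 101 tested genes within 50 places of Shh, by place in gene order. Shh has the lowest value (-0.51), its neighbours in the list other than 9530036O11Rik (-0.25) lie near 0, and Abhd1 (0.34), Nupl2 (-0.23) and Rint1 (-0.18) stand 31 to 46 places away.

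On the rest of the chromosome, 3 of 1040 tested genes (0.288%) passed on the average of the sexes, against 40 of 17753 (0.225%) on the other chromosomes. The 3 were Sel1l3 (193 places after Shh, -0.40, SE 0.05, limma adjusted p = 0.000196), Bmp3, a BMP family ligand (369 places after, 0.44, SE 0.06, limma adjusted p = 0.000638), and P2rx2, an ATP-gated channel (471 places after, 0.19, SE 0.04, limma adjusted p = 0.0465).

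The sex of the fetus was not used to choose the genes, so the male minus female differences were tested in each genotype. Rnf32 was higher in males, at 10.14 ± 0.17 against 9.85 ± 0.19 in controls (log2 difference 0.29, SE 0.09, limma adjusted p = 0.0647) and 10.04 ± 0.19 against 9.81 ± 0.07 in knockouts (0.23, SE 0.09, limma adjusted p = 0.179), and it passed in neither. In controls it passed without male control 1 (adjusted p = 0.0496), male control 4 (0.0275) or female control 4 (0.0166), and in knockouts without male knockout 1 (0.0316). 9530036O11Rik differed by 0.10 (SE 0.05) in controls and 0.10 (SE 0.05) in knockouts (limma adjusted p = 0.244 and 0.316). Nupl2 differed by -0.03 (SE 0.07) in controls and 0.18 (SE 0.07) in knockouts (limma adjusted p = 0.865 and 0.138). Abhd1 differed by 0.14 (SE 0.08) and -0.10 (SE 0.08), with limma adjusted p = 0.361 and 0.657. In all, 0 of the 10 genes passed in controls and 0 in knockouts, where 6.94% and 7.19% of all genes did, and an unadjusted p under 0.05 was reached by 2 in each, beside 19.1% and 17.2% of all genes. Shh was higher in males by 0.47 in controls and 0.58 in knockouts (limma adjusted p = 0.000722 and 5.99e-05). For the other 6 genes the 95% intervals of the differences reached from -0.35 for Mnx1 in controls to 0.28 for Lmbr1 in controls. These comparisons share their arrays with the knockout comparisons, whose results were known when the list was drawn up. The tests between sexes are therefore not independent of that choice, least of all in knockouts.

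**Figure D4:**
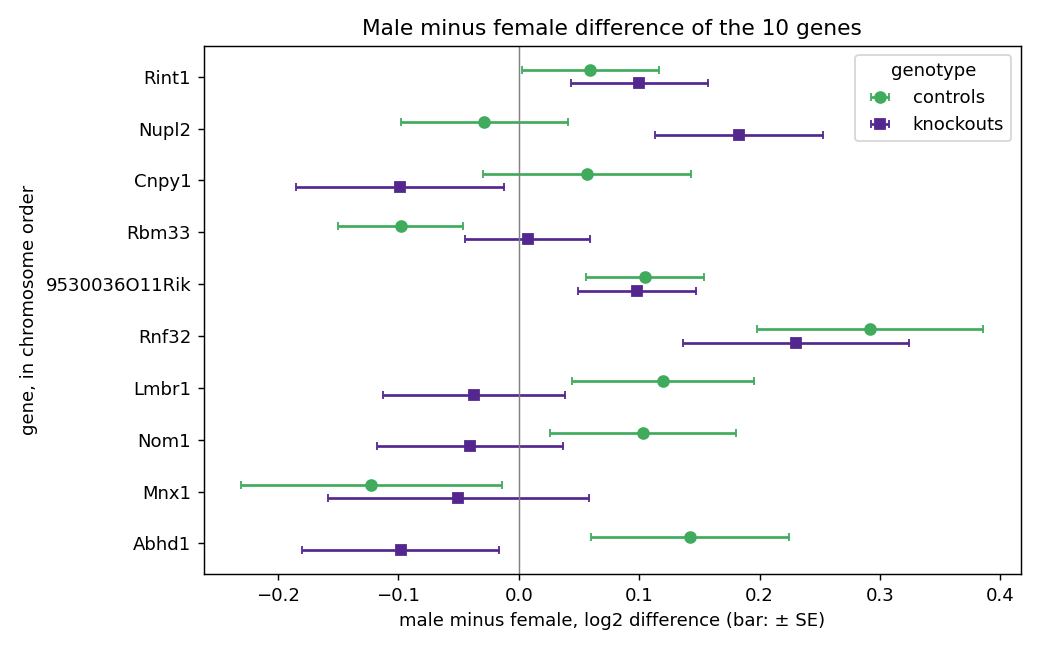
Male minus female difference on the log2 scale for each of the 10 genes in controls (circles) and knockouts (squares), with bars of ± SE, in chromosome order. Rnf32 has the highest values, 0.29 and 0.23, and Nupl2 and Abhd1 are among the genes with opposite signs in the genotypes.

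Within groups, the listed genes shared no common sign of variation. After the group means were subtracted, the 45 pairs of listed genes had a median r of -0.04 over the 22 arrays, from -0.46 for Nom1 with Mnx1 to 0.56 for Lmbr1 with Nupl2, and 20 pairs were above 0. Of all genes, the most alike by this measure was Mavs for 9530036O11Rik (r = 0.79), Nans for Rint1 (0.79), Cmss1 for Nupl2 (0.79), Ap5z1 for Abhd1 (0.73), Prkd1 for Lmbr1 (0.73), Gm20324 for Rnf32 (0.75), Gm23264 for Rbm33 (0.84), Spry1 for Cnpy1 (0.84), Tfdp2 for Nom1 (0.89) and Gm9901 for Mnx1 (0.87). Of the 3 most alike genes for each member, 30 in all, 2 were on chromosome 5, both for Abhd1. Each is the highest value over all other genes tested and is given without a test; the arrays share tissue and processing.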

How the data were processed

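The authors deposited 1 table of log2 intensities from Affymetrix whole-transcript arrays, with 72688 probe sets on 22 arrays. The sources used here do not give the background correction, normalization or genome build. The log2 scale was inferred from the range of values, 1.59 to 14.23. Of the probe sets, 30604 had exactly 1 gene symbol, and control probe sets were left out. Genes above the array median on at least 5 arrays were kept, with the probe set of highest mean, which gave 19050. Gene order came from the GRCm38.p6 gene table and was used only for names and neighbours.

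limma 3.58.1 (R 4.3.3) fitted 4 group means over all arrays, two-sided, with Benjamini-Hochberg adjustment over all genes and a threshold of 0.05. The fit was also run on simulated data with independent noise, only as a check of the code. The differences added there were larger than those of most listed genes, so the run supports no result here. The genes, the window and the lists were chosen with earlier results of these data known. Named genes were the members, Sox9 and Shh, called window genes, the 5 nearest on each side of Shh, the 3 highest and 3 lowest unlisted window genes, called genes of the same chromosome and the 3 most alike genes. Dnajb6 and Preb were named after their values were seen. Plots used matplotlib 3.10.9 (Python 3.11.15). Precision is limited by how many arrays there are; the median SE was 0.065 in males and 0.071 in females.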

Additional observations from a re-analysis of the deposited data

Results flagged for a closer look

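Rbm33 read 8.45 in female control 1, apart from the other female controls, which ran from 8.36 to 8.37. The gap was 0.872 of the range of the group, above Dixon's critical value of 0.71 for 5 arrays. It was the 1 such array among 48 groups of values checked (the 10 genes, Shh and Sox9 in 4 groups), where chance alone gives about 1 in 20.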

How the results depend on the processing

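The knockout minus control values of the 10 genes moved by less than 1 SD between replicates under every alternative run. For 9530036O11Rik, Rint1, Nupl2 and Abhd1 the sign held in both sexes whichever array was left out and under every other setting that kept them; the filter at the 75th percentile removed all of these but Rint1. Where a listed gene is named here as passing between knockouts and controls, it was chosen on that contrast, and the pass supports nothing about the gene. A count of genes passing among the 101 window genes (2 in males, 1 in females, 4 on the average) holds Shh and listed genes chosen on these contrasts, so it supports nothing and is given only for its dependence on settings. In males it was 1 with quantile normalization, median centring, that filter, the replicate block or only the groups compared, where Shh alone passed, and 1 with array weights, where Shh was lost (adjusted p = 0.0517) and 9530036O11Rik passed. In females it stayed 1 with only the groups compared, but Shh was lost (0.199) and Abhd1 passed. It was 3 in females with array weights, and on the average 2 with that filter and 2 with 25 genes on each side. Leaving out each array gave 1 to 2 in males, 0 to 2 in females and 3 to 5 on the average, where Nupl2 passed in 6 of 22 fits. Nupl2 was also not among the average calls with quantile normalization, median centring or no filter. Over all genes the male count was 20 with only the groups compared, the female count 3 with those or with median centring and 11 with array weights, and the average count 72 with array weights. Leaving out each array gave 27 to 49, 2 to 6 and 41 to 56 in these comparisons, and 1006 to 1694 for the sexes in controls and 1073 to 1434 in knockouts. The lowest male count, 27, came without male control 6. Rnf32 was the 1 listed gene called between control sexes with the 75th percentile filter (adjusted p = 0.0490) or array weights (0.0171), and the count ran from 0 to 1 in either genotype with an array left out. Differences between the sexes near 0 changed sign: Nupl2 in controls with median centring (0.0096), Rbm33 in knockouts with the replicate block (-0.0077), and, with an array left out, Rbm33 (-0.015 to 0.041), Lmbr1 (-0.083 to 0.014) and Nom1 (-0.10 to 0.0082) in knockouts. The causes were not tested. Same-numbered arrays deviated together with r over 0.1 in 4 of 31 pairs (median -0.03, highest 0.28). These values cannot tell whether such arrays were litter mates or were processed together, so the block rests only on a shared number. With the replicate block the window counts were 1 in males, 1 in females and 4 on the average, with Wdr86 in place of Nupl2. Several listed genes were dim, and intensities near background limit what they show.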
